A study of Homo sapiens with 21 samples.

Results

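Pancreatic polypeptide (PPY), peptide YY (PYY) and neuropeptide Y (NPY) were followed across islet cells differentiated from H1, a line of human embryonic stem cells. The members were chosen by name: they are the 3 genes of the count table whose identifiers map to these symbols, of 62699 genes used, and all 3 passed the filter on low counts. The 21 libraries came from unedited cells (WT) and from cells labelled ISL1-/-, PAX6-/- or PDX1-/-, in which both copies of the named gene are given as knocked out. These genes encode transcription factors of pancreatic endocrine cells. All groups received a lentivirus on day 11 of differentiation, either ISL1-IRES2-BFP (called the ISL1 vector here) or BFP alone, and were sorted for the blue fluorescent protein BFP and harvested on day 18. The ISL1-/- and PAX6-/- cells gave 3 libraries under each vector, the WT cells 2 under each, and the PDX1-/- cells 3 with BFP and 2 with ISL1. The design text calls the replicates biological, and how many clones stand behind each knockout is not given in the sources used here.

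The PP-fold peptides are a family of short, C-terminally amidated peptides. Pancreatic polypeptide is the hormone of the PP cells of the islet, peptide YY is made by enteroendocrine L cells of the gut and by islet cells, and neuropeptide Y is a transmitter of sympathetic and central neurons that is also found in immature islet cells. Each is cut from a precursor by prohormone convertases, trimmed by a carboxypeptidase and amidated, and acts on the Y receptors, a group of G protein-coupled receptors. The peptidase DPP4 removes the N-terminal dipeptide of peptide YY and neuropeptide Y, which changes the receptors they act on. PPY and PYY lie side by side on chromosome 17, and NPY lies on chromosome 7.

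The coding stretches of the mature peptides are shown to let the relationship of the 3 members be read directly. They were taken from GENCODE release 29 transcripts, run 5′ to 3′, and hold the 36 codons of the mature peptide in lower case followed in capitals by the 3 codons of the glycine-lysine-arginine signal, where the precursor is cleaved and amidated.
PPY: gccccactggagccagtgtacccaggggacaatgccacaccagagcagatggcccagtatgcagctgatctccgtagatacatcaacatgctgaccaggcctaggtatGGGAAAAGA
PYY: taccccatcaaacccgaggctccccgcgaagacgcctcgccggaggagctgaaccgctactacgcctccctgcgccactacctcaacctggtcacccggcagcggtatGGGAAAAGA
NPY: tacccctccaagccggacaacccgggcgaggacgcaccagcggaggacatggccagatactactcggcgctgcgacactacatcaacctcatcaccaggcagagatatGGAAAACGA
Over the 108 bases before the signal, PYY and NPY were identical at 76 positions (70.4%). PPY matched NPY at 63 (58.3%) and PYY at 60 (55.6%), so the neighbours on chromosome 17 were the least alike pair in this stretch. No run of 50 bases was shared between transcripts of any 2 members, which bears on whether reads of one could be counted for another. PPY shared 20 of its 1121 such runs (1.78%) with its pseudogene PPY2P, whose 2 rows of the table had 0 counts in all 21 libraries.

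In the table, PPY (ENSG00000108849.8) spans 43940804 to 43942476 on the minus strand of chromosome 17 (GRCh38) with 995 exonic bases. PYY (ENSG00000131096.11) spans 43952733 to 44004469 on the same strand with 1186 exonic bases, 10256 bases from PPY. NPY (ENSG00000122585.8) spans 24284188 to 24291862 on the plus strand of chromosome 7 with 893 exonic bases. No other gene of the table overlapped a member on either strand. The bases before the start sites of the adjoining pair are shown because their levels moved together across the libraries (RefSeq, GRCh38.p14, minus strand, bases inside deposited exons left out, capitals marking motif matches). The PPY window is chr17:43942477-43942726 and the PYY window, before the start site nearer to PPY, is chr17:43953976-43954190.
PPY: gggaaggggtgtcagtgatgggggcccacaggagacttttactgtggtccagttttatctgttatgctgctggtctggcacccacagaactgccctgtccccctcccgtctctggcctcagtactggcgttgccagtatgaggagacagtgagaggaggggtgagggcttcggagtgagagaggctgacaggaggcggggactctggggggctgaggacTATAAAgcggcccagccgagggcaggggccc
PYY: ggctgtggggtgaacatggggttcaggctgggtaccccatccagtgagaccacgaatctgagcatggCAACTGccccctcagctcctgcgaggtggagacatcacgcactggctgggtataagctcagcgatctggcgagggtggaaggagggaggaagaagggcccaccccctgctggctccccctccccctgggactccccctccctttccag
Both strands were searched for TAAT (the homeodomain core), CTAATG (which holds TAAT), CANNTG (the E-box) and TATAAA. The PPY window held a single TATAAA, starting 31 bases before the start site, a motif found in 10.7% of 35116 promoters over the same window. The PYY window held a single E-box, starting 183 bases before its start site, which 57.1% of promoters hold there. The NPY window on chromosome 7 held none of the 4 motifs, and neither TAAT nor CTAATG was in any of the 3 windows. TAAT is in 47.4% of promoters over the PPY window.

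Several properties of the libraries bear on the values. Total counts ran from 36.8 M to 60.2 M per library. ISL1 had levels of 71.6 to 96.8 CPM (counts-per-million) in the 6 ISL1-/- libraries and 306 to 519 in the 4 WT libraries, but within each genotype it did not separate the libraries labelled ISL1 vector from those labelled BFP. PAX6 and PDX1 counts did not tell the lines labelled PAX6-/- and PDX1-/- from WT, where the edits lie is not given in the sources used here, and directions drawn from these lines rest on their labels. PAX6-/- with ISL1 replicate 3 and PDX1-/- with ISL1 replicate 4 stood apart: mitochondrial genes took 3.16% and 3.84% of their counts against 1.28% to 1.93% in the other 19 libraries, and their counts differed from those of their replicates far more than in any other pair. Wherever replicate 2 or 4 of PDX1-/- with ISL1 is left out, that group is 1 library, which is assumed to vary like the other groups. Chromogranin A (CHGA), the granin of endocrine granules, had 10301 to 48918 CPM, the neural crest and glia markers SOX10, FOXD3 and S100B reached at most 0.196, 0.161 and 1.01 CPM in any library, and the 5 mesenchyme markers summed to 70.9 to 1758 CPM. In bulk RNA, fewer cells of a type and less RNA per cell cannot be told apart. Replicates are separate samples, and the tests set differences against the spread between them. Whether that spread covers the spread between clones is not known. Groups of 2 or 3 libraries can lie apart without any change. How many of all genes do so was not counted, and lack of overlap is given below only as a description.

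PPY was low everywhere and nearly absent in ISL1-/- with BFP. CPM are counts-per-million values on the TMM-scaled library size. WT with BFP had 1.47 and 3.84 CPM, and WT with ISL1 had 1.79 and 3.92. PDX1-/- with BFP had 1.66, 1.61 and 1.42. These libraries overlapped or lay next to each other. ISL1-/- with BFP had 0 reads in replicates 1 and 2 and 1 read in replicate 3, which is 0.0156 CPM, and a count of 0 allows up to 0.0531 and 0.0520 CPM (3 counts, counting error only). PAX6-/- with BFP had 0.0208, 0.0357 and 0.0946 CPM, from 1, 2 and 5 reads. Neither of these knockouts overlapped WT.

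With the ISL1 vector, PPY had 0.166, 0.0997 and 0.576 CPM in ISL1-/-, from 9, 6 and 32 reads. PAX6-/- with ISL1 had 0.175 CPM in replicate 1, 0 reads in replicate 2 (up to 0.0464 CPM) and 0.692 in replicate 3, the library that stood apart. PDX1-/- with ISL1 had 1.45 CPM in replicate 2 and 7.26 in replicate 4, which also stood apart and was the highest of the 21 libraries. By group mean the order ran from PDX1-/- with ISL1 (4.35 CPM ± 4.11, SD, n = 2) through WT with ISL1 (2.85 ± 1.51, n = 2), WT with BFP (2.66 ± 1.67, n = 2) and PDX1-/- with BFP (1.56 ± 0.127, n = 3). The libraries of each group in that stretch overlapped those of the next. A gap without overlap followed, down to PAX6-/- with ISL1 (0.289 ± 0.360, n = 3) and ISL1-/- with ISL1 (0.281 ± 0.258, n = 3), which overlapped, then PAX6-/- with BFP (0.0503 ± 0.0390, n = 3) and ISL1-/- with BFP (0.00519 ± 0.00898, n = 3).

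**Figure D1:**
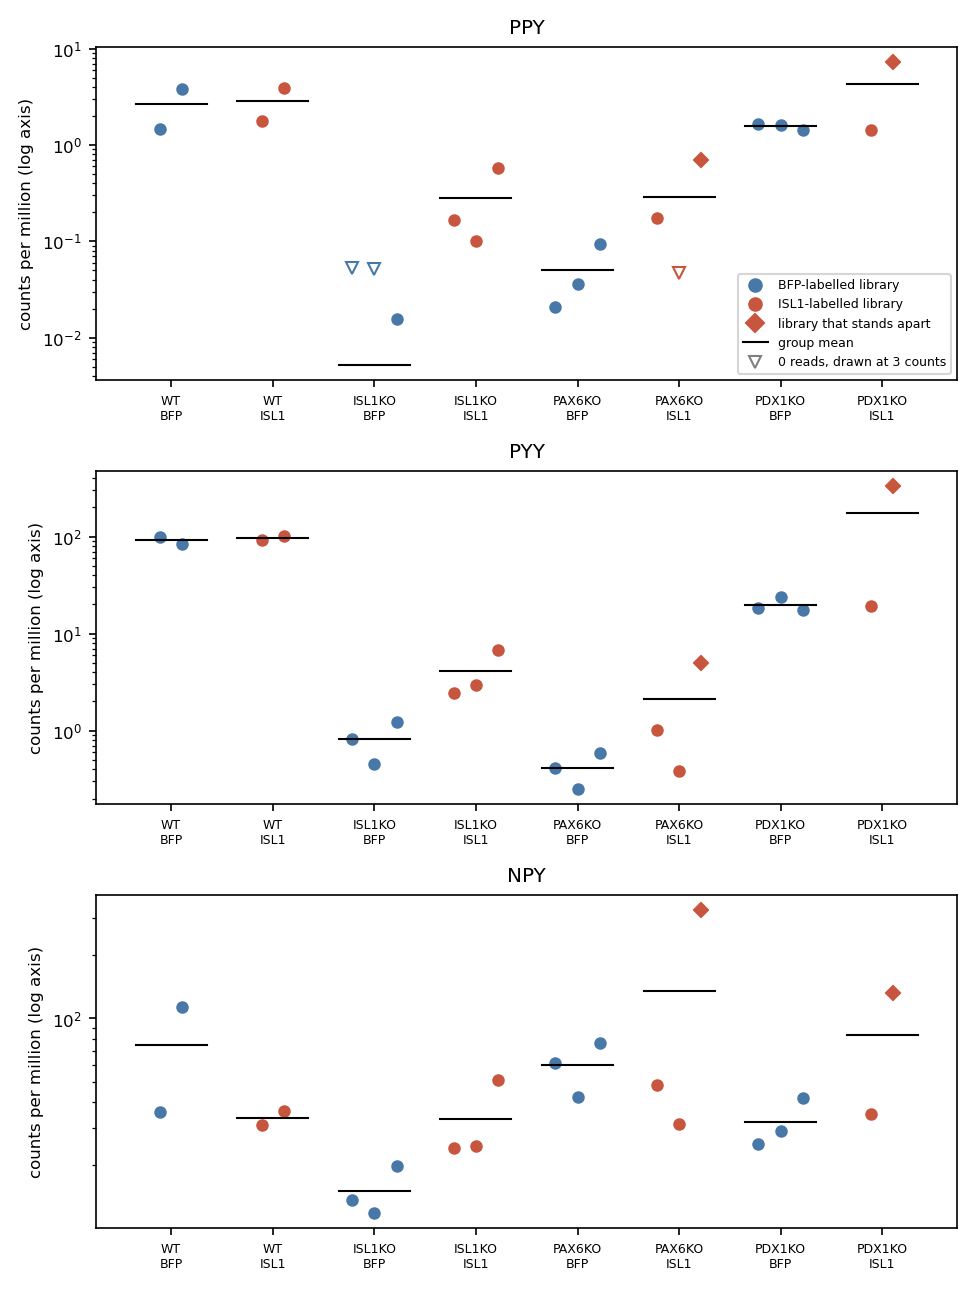
Counts-per-million values (log axes) of PPY, PYY and NPY in each of the 21 libraries, by genotype and vector; horizontal lines are group means, diamonds are the libraries that stood apart, and open triangles are libraries with 0 reads drawn at 3 counts. PPY and PYY are lowest in ISL1KO (ISL1-/-) and PAX6KO (PAX6-/-) with BFP, at no more than 0.0946 and 1.23 CPM, while NPY stays between 11.9 and 328 CPM in every library.

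PYY was the more abundant of the adjoining pair in every group. WT with BFP had 99.9 and 83.7 CPM, and WT with ISL1 had 92.2 and 101. PDX1-/- with BFP had 18.2, 23.9 and 17.5 CPM, below every WT library. ISL1-/- with BFP had 0.815, 0.451 and 1.23 CPM and PAX6-/- with BFP had 0.415, 0.250 and 0.586. The lowest WT library was thus far above the highest library of either knockout.

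With the ISL1 vector, PYY had 2.47, 2.99 and 6.86 CPM in ISL1-/-, all above the BFP libraries of that genotype. PAX6-/- with ISL1 had 1.01, 0.387 and 4.99, of which the last is the library that stood apart and the second lay within the BFP range. PDX1-/- with ISL1 had 19.5 CPM in replicate 2 and 330 in replicate 4. Replicate 2 lay within the PDX1-/- BFP range, and replicate 4 was above every WT library. The mean of this group, 175 CPM ± 220 (SD, n = 2), therefore describes neither library. In the order of group means it was followed by WT with ISL1 (96.7 ± 6.32, n = 2) and WT with BFP (91.8 ± 11.4, n = 2), which overlapped, and then, without overlap, by PDX1-/- with BFP (19.9 ± 3.53, n = 3) and ISL1-/- with ISL1 (4.11 ± 2.40, n = 3). Below these, PAX6-/- with ISL1 (2.13 ± 2.50, n = 3), ISL1-/- with BFP (0.831 ± 0.389, n = 3) and PAX6-/- with BFP (0.417 ± 0.168, n = 3) each overlapped the group above.

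NPY was detected in every library and followed another order. WT with BFP had 35.8 and 114 CPM, a 2-library group whose members differed widely, and WT with ISL1 had 31.0 and 36.1. ISL1-/- with BFP had 13.7, 11.9 and 19.9 CPM, the lowest group, and ISL1-/- with ISL1 had 24.3, 24.8 and 51.2. PAX6-/- with BFP had 61.6, 42.5 and 76.1, which lay within the range of the WT libraries with BFP. PAX6-/- with ISL1 had 48.2, 31.6 and 328 CPM, of which the last came from the library that stood apart and was the highest NPY value measured. PDX1-/- with BFP had 25.3, 29.3 and 41.8 CPM, and PDX1-/- with ISL1 had 35.0 and 132. By group mean NPY was highest in PAX6-/- with ISL1 (136 ± 166, SD, n = 3), where replicate 3 sets the mean, and lowest in ISL1-/- with BFP (15.1 ± 4.21, n = 3). Of the neighbours in that order, 2 pairs did not overlap: PAX6-/- with BFP (60.1 ± 16.8, n = 3) above WT with ISL1 (33.6 ± 3.57, n = 2), and PDX1-/- with BFP (32.1 ± 8.63, n = 3) above ISL1-/- with BFP.

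Per length, the balance between the 3 genes differed between genotypes, given here as a description. The measure here is reads-per-kilobase-per-million (RPKM), with the deposited exon length, and shares are of the summed RPKM of the 3 genes. NPY made up 47.5% ± 22.03 (SD, n = 2) in WT with BFP, 30.8% ± 0.543 (n = 2) in WT with ISL1 and 65.6% ± 7.60 (n = 3) in PDX1-/- with BFP. It made up 96.1% ± 0.941 (n = 3) in ISL1-/- with BFP and 99.4% ± 0.0942 (n = 3) in PAX6-/- with BFP. PPY was the smallest share in every group, at most 2.97% ± 0.712 (PDX1-/- with BFP, n = 3). The mean RPKM of PYY was 29 times that of PPY in WT with BFP, 10.7 times in PDX1-/- with BFP and 6.95 times in PAX6-/- with BFP. Single libraries ran from 18.3 to 56.9 in WT, from 9.17 to 12.5 in PDX1-/- and from 5.20 to 16.8 in PAX6-/-, so the knockouts overlapped. In ISL1-/- with BFP the ratio was 134.5, which rests on 1 read of PPY. Without the length term the mean of PYY was above that of NPY in WT with BFP, the NPY to PYY ratio being 0.814 by CPM and 1.08 by RPKM, so the order of these genes in that group depends on the length term. In the single libraries the per-length ratio was 0.477 in one and 1.80 in the other.

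**Figure D2:**
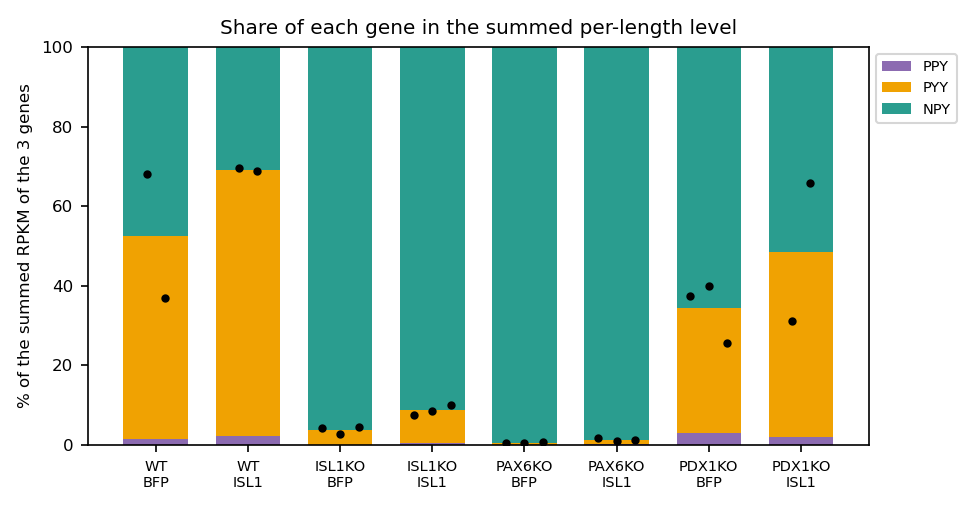
Mean share of each gene in the summed RPKM of PPY, PYY and NPY (stacked bars, % on the vertical axis) by group, with black points giving the combined PPY and PYY share of each library. NPY takes 96.1% and 99.4% in ISL1KO (ISL1-/-) and PAX6KO (PAX6-/-) with BFP, and the WT libraries with BFP lie far apart.

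The comparisons of each knockout with WT under BFP address what loss of each factor does to the family. All used edgeR's quasi-likelihood test with Benjamini-Hochberg adjustment over 25884 genes, and a gene was called at an adjusted p under 0.05. The 3 comparisons share the WT libraries, so they are not independent of each other. In ISL1-/-, PPY and PYY fell. Of all genes, 5.59% were called there, 1.67% higher and 3.92% lower. PPY had 194 reads in WT and 1 in the knockout, a ratio of 441 with a 95% counting interval of 78.2 to 17492. Its fitted log2 fold change was -8.37 (SE 1.42, adjusted p = 0.00189), and this value depends on the prior count. PYY changed by -6.78 (log2, SE 1.02, adjusted p = 0.000766). NPY had -2.30 (SE 0.75, adjusted p = 0.0872): no knockout library overlapped WT, but the change missed the threshold. It passed under 11 of 30 alternatives, with adjusted p from 0.000623 to 0.673. Without WT with BFP replicate 3 the value was -1.25 (adjusted p = 0.673), and without replicate 1 it was -2.91 (adjusted p = 0.103). Leaving out PAX6-/- with ISL1 replicate 2 or 3, or PDX1-/- with ISL1 replicate 2 or 4, gave a call at a like fold (-2.30, -2.30, -2.30 and -2.29, adjusted p = 0.0497, 0.00893, 0.0451 and 0.0460), and without both libraries that stood apart the value was -2.28 (adjusted p = 0.000623).

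In PAX6-/-, PYY again fell, its log2 fold change being -7.78 (SE 1.08, adjusted p = 0.000576). For PPY it was -5.64 (SE 1.13, adjusted p = 0.00807). Of all genes, 5.51% were called, 2.25% higher and 3.26% lower. The PPY call was lost without WT with BFP replicate 3, where the value was -4.80 (adjusted p = 0.0838, range over the alternatives 5.27e-05 to 0.0838). The NPY change, -0.31, was within error (SE 0.75, adjusted p = 0.887), and this turned to 0.74 without the same WT library.

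In PDX1-/-, no member was called, while 9.68% of all genes were, 4.03% higher and 5.65% lower. PYY had -2.21 (log2, SE 0.86, adjusted p = 0.121), and no library overlapped WT. It passed under 8 of 30 alternatives, with adjusted p from 1.98e-06 to 0.390, among them the fits without PAX6-/- with ISL1 replicate 3 (-2.21, adjusted p = 0.0436) and without PDX1-/- with ISL1 replicate 2 (-2.21, adjusted p = 0.0249) or 4 (-2.21, adjusted p = 0.0244). Without both libraries that stood apart, the value was -2.23 (adjusted p = 0.000156). PPY had -0.76 (SE 0.88, adjusted p = 0.705), and 0.08 without WT with BFP replicate 3. NPY had -1.22 (SE 0.75, adjusted p = 0.379), and -1.23 without the libraries that stood apart (adjusted p = 0.0295). It was -0.16 without WT with BFP replicate 3 (adjusted p = 0.973) and -1.82 without replicate 1 (adjusted p = 0.357).

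The knockouts were also set directly against each other under BFP. PPY and PYY were higher in PDX1-/- than in either other knockout, and NPY was called in none of these comparisons. PDX1-/- exceeded ISL1-/- on the log2 scale by 7.61 for PPY (SE 1.395, adjusted p = 0.00364) and 4.57 for PYY (SE 0.91, adjusted p = 0.00666). Of all genes, 5.07% were called in that comparison, 2.34% higher and 2.73% lower. PAX6-/- was below PDX1-/- by -4.88 for PPY (SE 1.08, adjusted p = 0.0179) and -5.57 for PYY (SE 0.97, adjusted p = 0.00299). There 3.04% of all genes were called, 1.52% in each direction. The PPY call between PAX6-/- and PDX1-/- was lost without any single library of PAX6-/- with BFP and without PDX1-/- with BFP replicate 2, with values from -5.65 to -4.55 and adjusted p up to 0.102. PAX6-/- against ISL1-/- called no member, against 2.46% of all genes, 1.70% higher and 0.757% lower. There the NPY log2 difference was 1.99 (SE 0.70, adjusted p = 0.207) with no overlap between the libraries. Of 30 alternatives 6 passed, with adjusted p from 0.000964 to 0.526 over all, and without PAX6-/- with ISL1 replicate 3 the value was 1.99 (adjusted p = 0.0239).

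**Figure D3:**
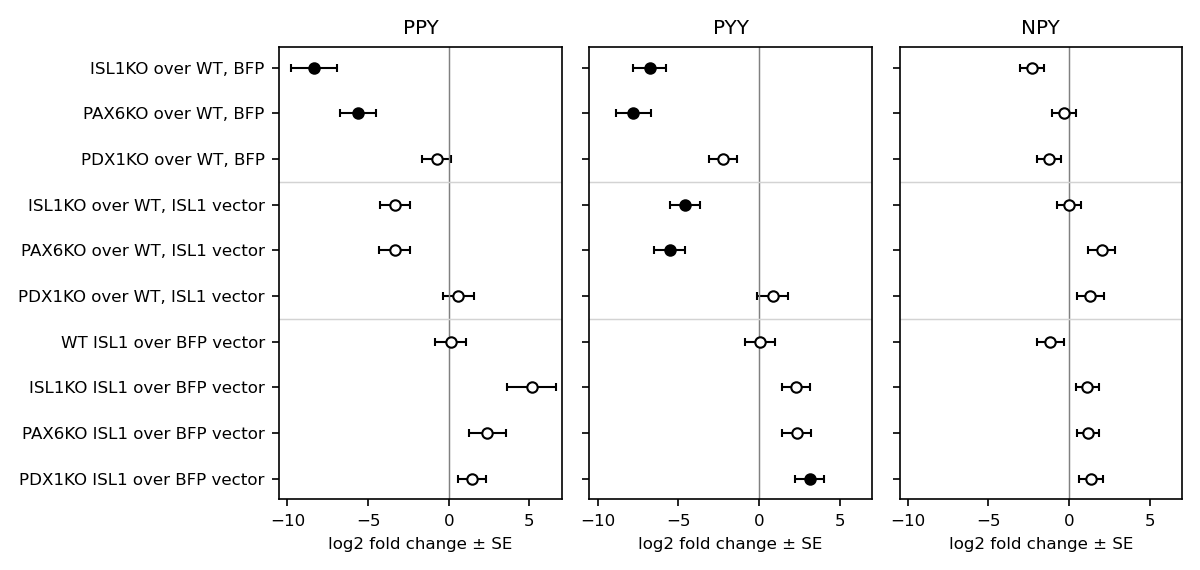
Log2 fold changes of PPY, PYY and NPY with their SE in 10 comparisons: knockouts against WT under each vector, and ISL1 over BFP vector in each genotype (KO marks a knockout line). Filled points have an adjusted p under 0.05; the ISL1KO and PAX6KO values of PPY under BFP, -8.37 and -5.64, and of PYY, -6.78 and -7.78, are the farthest below 0.

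The ISL1 vector was compared with BFP within each genotype, which asks whether the added ISL1 changes the family. In WT no member was called, against 0.0270% of all genes (0.0270% higher and 0.00% lower): log2 fold changes were 0.11 for PPY (SE 0.97), 0.08 for PYY (SE 0.94) and -1.15 for NPY (SE 0.84). The NPY value was -0.10 without WT with BFP replicate 3 and -1.76 without replicate 1. In ISL1-/- the libraries with the ISL1 vector were above all BFP libraries for each member, a separation not set against that of all genes. None passed, against 0.382% of all genes (0.251% higher and 0.131% lower). PPY had 47 reads against 1, a ratio of 49.4 with a counting interval of 8.44 to 1990.3, and its fitted log2 fold change was 5.14 (SE 1.54, adjusted p = 0.221). PYY had 2.30 (SE 0.85, adjusted p = 0.392) and NPY 1.14 (SE 0.69, adjusted p = 0.830). Without both libraries that stood apart, neither of which is in this genotype, PPY had 5.12 (adjusted p = 0.0228) and PYY 2.26 (adjusted p = 0.00242). PPY passed in 3 of 29 alternatives (adjusted p 0.0228 to 0.605) and PYY in 4 of 30 (adjusted p 0.00242 to 0.807). No fit that left out a single library gave either call.

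In PAX6-/- no member was called for the vector, against 0.355% of all genes (0.170% higher and 0.185% lower). PYY had 2.34 (log2, SE 0.90, adjusted p = 0.374), PPY 2.40 (SE 1.15, adjusted p = 0.489) and NPY 1.18 (SE 0.68, adjusted p = 0.542). Replicate 3 carried most of each. Without it PYY had 0.72 and PPY 0.65, and NPY turned to -0.59, with adjusted p of at least 0.789 for all 3. In PDX1-/- PYY was called, at 3.14 (SE 0.88, adjusted p = 0.0279), in a comparison where 12.5% of all genes were called, 8.19% higher and 4.33% lower. This rested on replicate 4: without it the value was -0.03 (adjusted p = 0.997). The call was also lost without any single library of PDX1-/- with BFP (values 3.06 to 3.29, adjusted p = 0.0753 to 0.0991). PPY had 1.47 (SE 0.87, adjusted p = 0.265) and NPY 1.38 (SE 0.74, adjusted p = 0.2197), and without replicate 4 these were -0.11 and 0.13. In the same library INS reached 25612 CPM and GCG 106084 CPM, the highest of all libraries for both hormones, and the 5 liver markers, some of which endodermal cells also express, summed to 25321 CPM against 3218 to 11598 in the libraries that did not stand apart. The part of these in the PYY value was not tested.

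The vector effect in each knockout minus that in WT was tested for each member, and none was called. The share of all genes called was 0.00386% for ISL1-/- (0.00386% higher), 0.00% for PAX6-/- and 1.19% for PDX1-/- (0.993% higher and 0.197% lower), and at an unadjusted p under 0.05 the PAX6-/- test held 916 genes. NPY gave 2.30 (SE 1.08), 2.33 (SE 1.08) and 2.53 (SE 1.12) on the log2 scale in ISL1-/-, PAX6-/- and PDX1-/-, with unadjusted p of 0.0489, 0.0457 and 0.0375 and adjusted p of 1.000, 0.894 and 0.283 in edgeR's test. These 3 share the WT libraries, among which the WT with BFP pair lay far apart for NPY. Without WT with BFP replicate 3 the NPY values were 1.23, 1.26 and 1.47. Without PAX6-/- with ISL1 replicate 3 the PAX6-/- value was 0.56, and without PDX1-/- with ISL1 replicate 4 the PDX1-/- value was 1.29. Without PDX1-/- with ISL1 replicate 2 the PDX1-/- values passed for NPY (3.19, adjusted p = 0.0424) and PYY (3.97, adjusted p = 0.00923), leaving that group to the library that stood apart.

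Under the ISL1 vector, the knockouts were again compared with WT. PYY stayed lower in ISL1-/- (log2 fold change -4.56, SE 0.92, adjusted p = 0.00978), and in PAX6-/- (-5.52, SE 0.97, adjusted p = 0.00370). Of all genes, 3.72% were called in the former (1.02% higher and 2.69% lower) and 3.56% in the latter (1.26% higher and 2.30% lower). Without PAX6-/- with ISL1 replicate 3 the PAX6-/- value for PYY was -7.13 (adjusted p = 0.00126). The ISL1-/- call was lost without ISL1-/- with ISL1 replicate 1 (-4.30, adjusted p = 0.0562) or 2 (-4.37, adjusted p = 0.0594). PPY had -3.34 in each (adjusted p = 0.0575 in ISL1-/- and 0.0614 in PAX6-/-), with no overlap with WT, and missed the threshold. It passed in ISL1-/- without PAX6-/- with ISL1 replicate 2 or 3 or PDX1-/- with ISL1 replicate 2 or 4 (values -3.35 to -3.34, adjusted p = 0.0178 to 0.0216). It passed in PAX6-/- without the same libraries other than PAX6-/- replicate 2, with -5.10 without PAX6-/- replicate 3 (adjusted p = 0.0152). In PDX1-/- no member was called, against 0.634% of all genes (0.348% higher and 0.286% lower). PYY there had 0.86 (SE 0.94, adjusted p = 0.649) with both libraries and -2.31 (adjusted p = 0.314) without replicate 4. It passed in 1 of 30 alternatives, without both libraries that stood apart (-2.31, adjusted p = 0.0144). NPY was called in none of these: it had -0.01 in ISL1-/- (SE 0.76), 2.02 in PAX6-/- (SE 0.82, adjusted p = 0.204) and 1.32 in PDX1-/- (SE 0.84, adjusted p = 0.422). The latter pair came to 0.25 without PAX6-/- replicate 3 and 0.07 without PDX1-/- replicate 4.

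Across the 21 libraries, log2 CPM of PPY and PYY rose and fell together, with a Pearson r of 0.951, and 0.947 without the libraries that stood apart. NPY had an r of 0.434 with PPY and 0.279 with PYY. These are descriptions over libraries that share genotypes, and PPY rests on 33 reads or fewer in 12 of them. The gene most like PPY among 11891 searched was PYY. It was followed by GCG (0.913), which encodes glucagon, VEGFC (0.907), a growth factor of lymphatic vessels, SLC35F4 (0.905) and BTG1 (0.901), an antiproliferative factor. PYY was most like GCG (0.957), then CTBS (0.942), NKAIN4 (0.942), LMO2 (0.938) and VEGFC (0.930). NPY was most like LY6H (0.937), BAMBI (0.936), a pseudoreceptor that dampens TGF-beta signals, TBC1D30 (0.901), PAX6 (0.895) and APTR (0.894). With the libraries that stood apart left out, the NPY values were lower, at 0.863 for LY6H, 0.870 for BAMBI and 0.816 for PAX6.

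**Figure D4:**
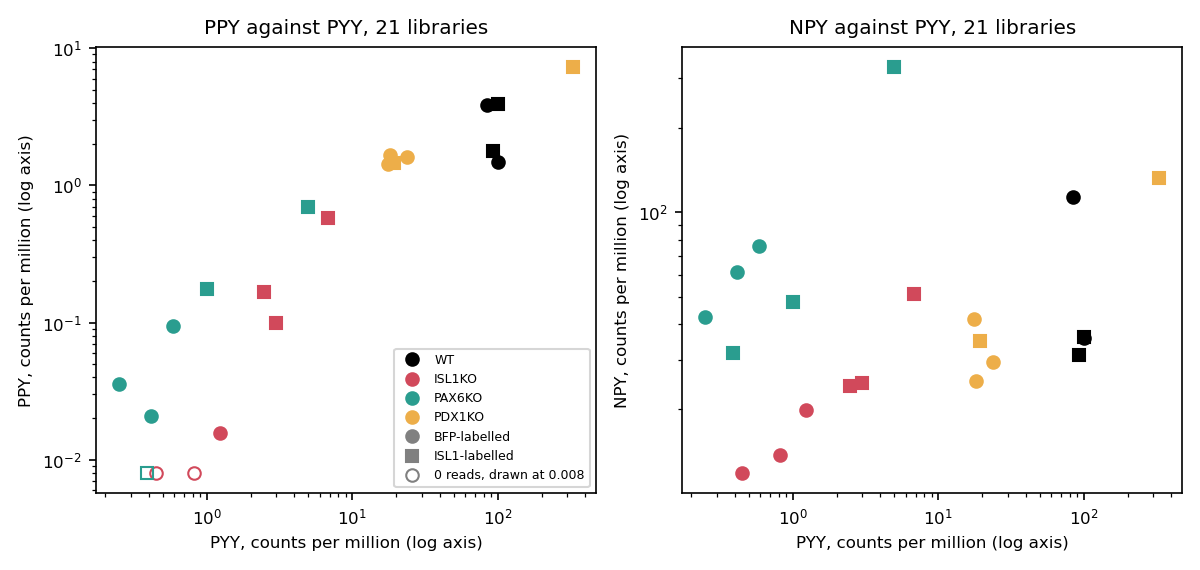
PPY (left) and NPY (right) against PYY in counts-per-million units in the 21 libraries, on log axes, coloured by genotype and shaped by vector; open symbols are libraries with 0 reads of PPY. PPY rises with PYY (r of 0.951 on log2 CPM), while NPY does not follow PYY (0.279).

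Of 15 tested genes within 200 kb of PPY or PYY, 1 was called higher and 1 lower in ISL1-/-, and likewise in PAX6-/-. In PDX1-/- 1 was called higher and none lower. Of all genes, 1.67% were called higher and 3.92% lower in ISL1-/-, 2.25% and 3.26% in PAX6-/-, and 4.03% and 5.65% in PDX1-/-. The ISL1 vector called 2 of the 15 lower in PDX1-/-, DUSP3 (-1.20) and MPP3 (-1.40), against 4.33% of all genes. NAGS, whose product makes the activator of the urea cycle and which starts just past PYY on the other strand, had a log2 fold change of -1.76 in ISL1-/- (adjusted p = 0.0154) and -2.26 in PAX6-/- (adjusted p = 0.00425), at 3.74 CPM in WT with BFP. MPP3, a scaffold protein gene, was higher in ISL1-/- (1.32), PAX6-/- (0.98) and PDX1-/- (1.80). The median log2 fold change of the 15 was 0.33 in ISL1-/- and 0.08 in PAX6-/-, beside 0.03 over all genes in each. No tested gene lay within 200 kb of NPY. Of the family's copies only a PYY2 row was tested, and it was not called.

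The Y receptors include NPY1R, the main receptor of neuropeptide Y and peptide YY, NPY2R, which also binds their DPP4-trimmed forms, NPY4R, the receptor of pancreatic polypeptide, and NPY5R. Of 6 receptor genes, 3 were tested: NPY1R, NPY5R and NPY2R. NPY1R had 24.9 and 30.6 CPM in WT with BFP, 86.8, 99.3 and 91.1 in ISL1-/- with BFP, 102, 66.5 and 90.1 in PAX6-/- with BFP, and 160, 218 and 167 in PDX1-/- with BFP. No knockout library overlapped WT. It rose in ISL1-/- (log2 fold change 1.74, SE 0.40, adjusted p = 0.0148), in PAX6-/- (1.64, SE 0.39, adjusted p = 0.0213) and in PDX1-/- (2.71, SE 0.42, adjusted p = 0.000757). The ISL1-/- call was lost without either library of WT with BFP, and the PAX6-/- call without either of these or PAX6-/- with BFP replicate 1 or 3, with adjusted p up to 0.179 and 0.227. NPY5R rose in ISL1-/- (2.13, SE 0.36, adjusted p = 0.00170) and PAX6-/- (1.83, SE 0.35, adjusted p = 0.00638). Its mean level was 16.3 CPM ± 2.93 (SD, n = 3) and 13.3 ± 3.92 (n = 3) there against 3.75 ± 2.01 (n = 2) for WT. Both NPY5R calls were lost without WT with BFP replicate 1 (adjusted p = 0.0506 and 0.135). Of all genes, 1.67% were called higher in ISL1-/-, 2.25% in PAX6-/- and 4.03% in PDX1-/-. NPY1R and NPY5R lie on opposite strands of chromosome 4 and share 528 exonic bases (13.3% of NPY1R), so their reads there cannot be told apart where counting ignores strand. NPY4R, the receptor for pancreatic polypeptide, had between 1 and 11 reads per group and was not tested.

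With the ISL1 vector NPY1R was below every BFP library in each genotype: 21.4 and 20.8 CPM in WT, 35.7, 42.2 and 39.3 in ISL1-/-, 60.4, 46.8 and 39.4 in PAX6-/- and 59.4 and 14.9 in PDX1-/-. The fall was called in PDX1-/- (log2 fold change -2.29, SE 0.41, adjusted p = 0.00238). Without both libraries that stood apart it was -1.58 there (adjusted p = 0.000408), a fit in which PDX1-/- with ISL1 is 1 library. NPY5R was also called there (-1.15, SE 0.34, adjusted p = 0.0364), but passed in only 21 of 30 alternatives. It was -0.89 without the libraries that stood apart. Of all genes, 4.33% were called lower in PDX1-/- with the vector. In ISL1-/- and in PAX6-/- the vector called no receptor, against 0.131% and 0.185% of all genes called lower. With voom, or with the replicate number in the description as a block, 2 receptors were called lower in each of these knockouts. With voom none was called in PDX1-/-.

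**Figure D5:**
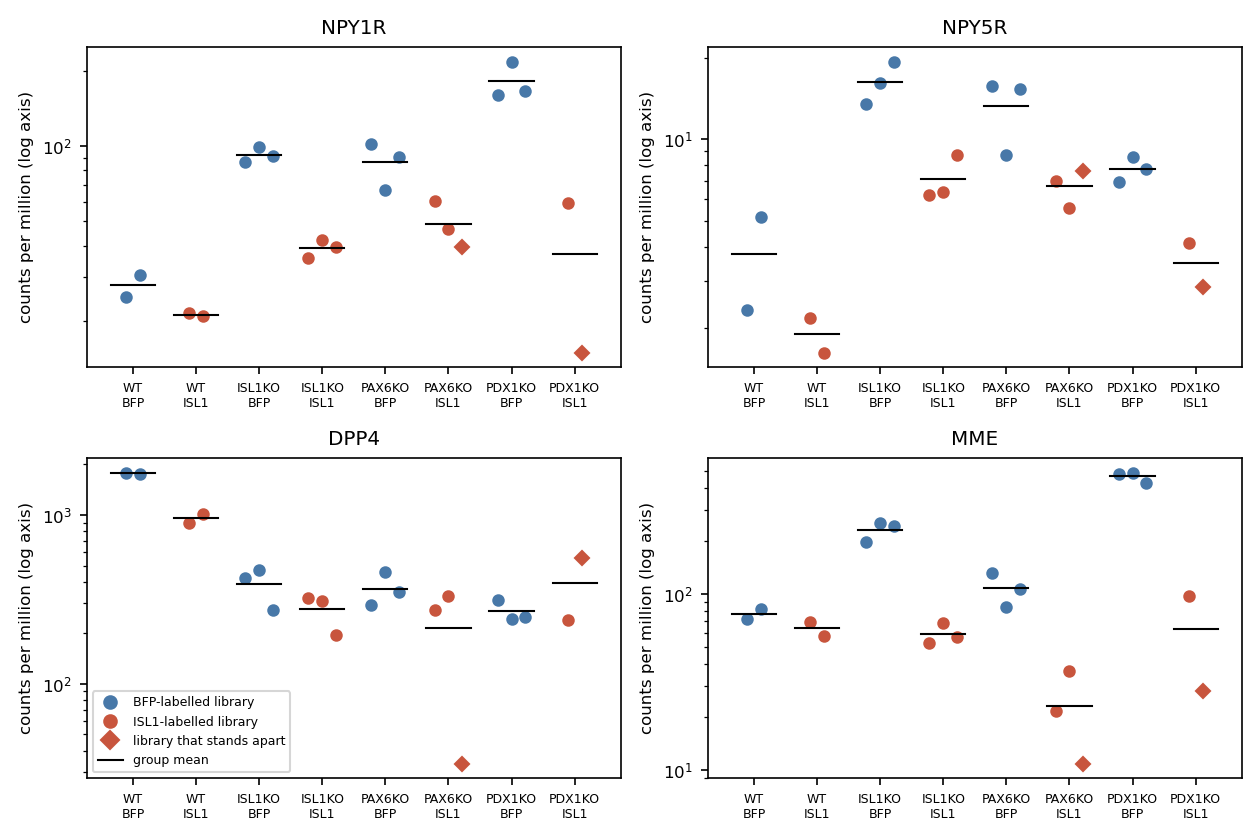
Counts-per-million values (log axes) of the receptor genes NPY1R and NPY5R and the peptidase genes DPP4 and MME in each of the 21 libraries, by genotype and vector (KO marks a knockout line), with group means as lines and the libraries that stood apart as diamonds. NPY1R lies at 24.9 and 30.6 CPM in WT with BFP and at 66.5 or above in each knockout with BFP, and DPP4 lies at 1744 or above in WT with BFP and at 474 or below in each knockout with BFP.

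Of the 4 peptidase genes, DPP4 was called lower in all 3 knockouts. It had 1787 and 1744 CPM in WT with BFP, 424, 474 and 272 in ISL1-/-, 293, 456 and 349 in PAX6-/- and 313, 243 and 250 in PDX1-/- with BFP. The log2 fold changes were -2.18 (SE 0.57, adjusted p = 0.0322), -2.27 (SE 0.57, adjusted p = 0.0275) and -2.72 (SE 0.58, adjusted p = 0.00623). Of all genes, 3.92%, 3.26% and 5.65% were called lower in ISL1-/-, PAX6-/- and PDX1-/-, and 1.67%, 2.25% and 4.03% higher. MME, neprilysin, which cuts these peptides within the chain, rose in ISL1-/- (1.59, SE 0.45, adjusted p = 0.0480) and PDX1-/- (2.60, SE 0.48, adjusted p = 0.00258). With the ISL1 vector MME fell in all 3 knockouts, by log2 fold changes of -1.97 in ISL1-/- (adjusted p = 0.0348), -2.23 in PAX6-/- (adjusted p = 0.0209) and -2.89 in PDX1-/- (adjusted p = 0.00167). Of all genes, the vector called 0.131%, 0.185% and 4.33% lower in these knockouts. The MME calls in ISL1-/- passed in 12 of 30 alternatives for the knockout and 16 of 30 for the vector, with adjusted p up to 0.306 and 0.191. The DPP4 calls in ISL1-/- and PAX6-/- were lost without any single library of the groups compared, with adjusted p up to 0.148 and 0.145. Without the libraries that stood apart, the vector values of MME were -1.90 in PAX6-/- and -2.22 in PDX1-/-. The vector calls for MME passed in 25 of 30 alternatives in PAX6-/- and 28 of 30 in PDX1-/-. With only the groups compared, neither of these was called. FAP, a relative of DPP4, had 0 reads in the 3 libraries of ISL1-/- with BFP while WT with BFP averaged 0.831 CPM ± 0.150 (SD, n = 2), at least 49.5-fold higher against 3 counts over the group.

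Of the 6 genes for precursor processing and amidation, 2 were called lower in ISL1-/-, 1 lower in PAX6-/-, and 1 higher and 1 lower in PDX1-/-. Of all genes, 3.92% were called lower in ISL1-/-, 3.26% lower in PAX6-/-, and 4.03% higher and 5.65% lower in PDX1-/-. CPE, the carboxypeptidase that removes the basic residues of the cleavage signal, fell in ISL1-/- from 1273 CPM ± 215 (SD, n = 2) to 363 ± 38.9 (n = 3), or -1.81 on the log2 scale (SE 0.29, adjusted p = 0.00122). SCG5, the chaperone of the convertase PCSK2, fell in ISL1-/- (-2.08, adjusted p = 0.0295) and PAX6-/- (-2.37, adjusted p = 0.0167). PCSK1, a convertase, rose in PDX1-/- (1.98, SE 0.54, adjusted p = 0.0279) while PCSK2 fell (-0.76, adjusted p = 0.0424). The PCSK2 call passed in 16 of 30 alternatives (adjusted p up to 0.462, without WT with BFP replicate 3, where it was -0.46). The calls for PCSK1 and for SCG5 in both knockouts were each lost without any single library of the groups compared, with adjusted p up to 0.266 for PCSK1 and 0.198 and 0.133 for SCG5. PAM, the amidating enzyme, was not called in any of the 7 main comparisons, with group means from 183 to 337 CPM. The list's median log2 fold change was -0.35 in ISL1-/-, 0.02 in PAX6-/- and -0.14 in PDX1-/-, beside 0.03 over all genes in each. The vector called 2 in PDX1-/-, against 12.5% of all genes, and there PCSK1 had -2.02 and SCG5 1.94. Without both libraries that stood apart these were -1.19 (adjusted p = 0.0121) and 0.03 (adjusted p = 0.978), with 1 library left in the ISL1 vector arm.

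Of 8 PP-cell marker genes other than PPY, none was called higher against WT under BFP in the main fit. There the ISL1-/- comparison called 7 lower, PAX6-/- 4 and PDX1-/- 5. Of all genes, 3.92%, 3.26% and 5.65% were called lower in these comparisons. With voom, PAX6-/- had 2 of the markers called higher beside 4 lower. ISL1-/- then had 7 lower and PDX1-/- 6, and none higher in either. The list's median log2 fold change was -1.39, -1.16 and -1.47, beside 0.03 over all genes in each. ETV1, a transcription factor gene, stood at 104 CPM ± 21.2 (SD, n = 2) for WT with BFP and fell to 18.0 ± 3.92 (n = 3) in ISL1-/-, 41.8 ± 7.72 (n = 3) in PAX6-/- and 28.7 ± 6.30 (n = 3) in PDX1-/-. In ISL1-/- the other falls named are ABCC9 (-3.47), SLITRK6 (-2.32) and SERTM1 (-1.53). In PAX6-/- they are SERTM1 (-3.10), THSD7A (-1.42) and the aquaporin gene AQP3 (-1.41), and in PDX1-/- SLITRK6 (-3.10), SERTM1 (-2.64) and ABCC9 (-2.30). These genes are expressed in other islet cells too, so their levels are not specific to PP cells. The AQP3 call passed in 13 of 30 alternatives in ISL1-/- and 14 of 30 in PDX1-/-. In ISL1-/-, the ID4 call passed in 25 of 30 and the THSD7A call in 27 of 30. The calls for SERTM1 in ISL1-/-, for ETV1, THSD7A and AQP3 in PAX6-/- and for ABCC9 in PDX1-/- were lost when certain single libraries were left out, WT with BFP replicate 1 or 3 among them, with adjusted p up to 0.279. With the ISL1 vector in ISL1-/-, ETV1 rose (1.39, SE 0.23, adjusted p = 0.00932) and so did MEIS2, a homeobox gene (0.97, SE 0.20, adjusted p = 0.0464), whose call passed in 14 of 30 alternatives. The ETV1 call was lost without ISL1-/- with BFP replicate 1 or 3 or ISL1-/- with ISL1 replicate 2 (adjusted p up to 0.0904). In PDX1-/- the vector called SERTM1 higher (1.65) and THSD7A lower (-1.25), against 8.19% and 4.33% of all genes. With voom or with only the groups compared, none of the 8 was called there.

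Of the 6 peptide genes that PYY cells of the gut also express, 5 were tested, INSL5 being the exception. Against WT under BFP, 1 was called lower in ISL1-/-, 3 in PAX6-/- and 2 in PDX1-/-. Of all genes, 3.92%, 3.26% and 5.65% were called lower there. With voom 3, 4 and 3 of the list were called lower, and 1 was called higher in PAX6-/-. GCG fell in ISL1-/- (log2 fold change -9.04, SE 1.16, adjusted p = 0.000211) and PAX6-/- (-10.06, SE 1.21, adjusted p = 0.000151), the knockouts in which PYY fell. CCK, cholecystokinin, fell in PAX6-/- (-6.06, adjusted p = 0.00243) and PDX1-/- (-3.28, adjusted p = 0.0289), the latter lost without any single library of the groups compared (adjusted p up to 0.226). GIP, the incretin of gut K cells, fell in the same knockouts (-6.99 and -6.29). CCK was not called in ISL1-/-, at 252 to 268 CPM under BFP against 286 and 139 in WT. With the ISL1 vector in ISL1-/-, GCG rose (5.36, SE 0.97, adjusted p = 0.0176), as did NTS, neurotensin (3.42, SE 0.57, adjusted p = 0.00980). Both calls were lost without any single library of ISL1-/- with BFP, with adjusted p up to 0.145 and 0.0960. The vector also gave calls for CCK (4.47) and GIP (6.67) in PDX1-/-, which turned to -0.65 and -0.05 without replicate 4. Of all genes, it called 0.251% higher in ISL1-/- and 8.19% higher in PDX1-/-.

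Among 19 transcription factor genes of pancreatic endocrine cells, 3 were called higher and 3 lower in ISL1-/-, 3 higher and 1 lower in PAX6-/-, and 7 higher and 3 lower in PDX1-/-. The shares over all genes were 1.67% and 3.92%, 2.25% and 3.26%, and 4.03% and 5.65%. ISL1 itself is among the 3 lower in ISL1-/- (-2.42). HHEX, a factor of delta cells, was lower in all 3 (-2.42, -1.85 and -2.28) and higher with the ISL1 vector in all 3 (2.64 in ISL1-/-, 2.13 in PAX6-/- and 2.63 in PDX1-/-). These were 2.61, 1.78 and 2.71 without both libraries that stood apart. Of this list the vector called only HHEX in ISL1-/- in the main fit, and HHEX higher and NKX6-1 lower (-1.86) in PAX6-/-. With voom it called 2 higher and 8 lower in ISL1-/-, and 1 higher and 10 lower in PAX6-/-. With only the groups compared it called 2 higher and 6 lower in ISL1-/-, and none in PAX6-/-. In the main fit the vector called 1 higher and 6 lower in PDX1-/-, the largest falls being NKX6-1 (-2.76), LMX1A (-2.52) and INSM1 (-1.97). With voom or with only the groups compared, it called none of the list in PDX1-/-. Of all genes, the vector called 0.382%, 0.355% and 12.5% in these knockouts. Against WT under BFP, MNX1 was higher in ISL1-/- (1.82) and PDX1-/- (2.27), as was NKX6-1 (1.80 and 2.38), a factor of beta cells and their progenitors. NEUROG3, the trigger of endocrine fate, was higher in PAX6-/- (2.83), where NKX2-2 (1.95) and PAX4 (1.13) were also. LMX1A was higher in PDX1-/- (2.60). The NKX6-1 and MNX1 calls in ISL1-/- were lost without WT with BFP replicate 1, and the NKX2-2 and PAX4 calls in PAX6-/- without either WT library or PAX6-/- with BFP replicate 1 or 3 (adjusted p up to 0.406). Without both libraries that stood apart, the counts were 8 higher and 4 lower in ISL1-/-, 8 and 2 in PAX6-/-, and 10 and 5 in PDX1-/-.

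Markers of sympathetic and enteric neurons were examined because neurons are a main source of NPY. DBH, which makes noradrenaline, ran from 0.441 to 9.81 CPM over the libraries and was highest in a library of ISL1-/- with BFP. GAP43, a growth cone protein gene, ran from 7.81 to 53.1 CPM and was highest in PDX1-/- with ISL1 replicate 4. ELAVL4, a neuronal RNA-binding protein gene, ran from 1.99 to 14.8 CPM, and PRPH, the gene of the neurofilament protein peripherin, from 0.0622 to 0.566 CPM. Both were highest in PAX6-/- with ISL1 replicate 3, the library with the highest NPY, in which GHRL, the ghrelin gene, also reached its highest level, 15335 CPM. The part of other cell types in the NPY values was not tested.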

How the data were processed

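RNA of 21 BFP-sorted samples was made into libraries with SMART-Seq v4 and sequenced, per the labels' protocols. The deposited values are read counts per gene made by the authors, unnormalized per the file headers, beside other columns that give gene positions and exon length. The submitters' processing notes name STAR 2.7.11b, featureCounts 2.1.1 and GRCh38. The annotation release, strand setting and treatment of multi-mapping reads are not given in the sources used here. A row broken over 3 lines was left out.

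Counts were fitted with edgeR 4.0.16 (R 4.3.3): TMM scaling, filterByExpr (minimum count 10, total 15), 1 quasi-likelihood model over all 21 libraries with one coefficient for each group, no block, and Benjamini-Hochberg adjustment within each of 16 comparisons (threshold 0.05). Fold changes used a prior count of 0.125, and SE is the fold change over the root of F. CPM are counts-per-million values on the TMM-scaled library size, and RPKM divides them by exon length. The fitting code was tested on simulated data. DESeq2 1.42.0 and limma 3.58.1 voom were among the 30 alternatives.

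Members and gene lists were chosen with earlier results of these data known. Of each list, called genes are named, at most 4 per comparison by size, plus the 5 genes most correlated with each member (log2 CPM, prior count 2, at least 10 CPM in some group). Genes outside that rule that are named (CHGA, INS, GHRL, DBH, GAP43, SOX10, FOXD3, S100B, PAM, NPY4R and others given by level) were chosen after their values were seen. Summed levels of the neuron and of the neural crest and glia lists are not reported here. Of comparisons with 3 same-numbered pairs, that of the vector in PAX6-/- met the rule for pairing (correlations of deviations 0.155, 0.391 and 0.333), since all exceed 0.1. That of the vector in ISL1-/- (0.183, 0.099 and 0.293) narrowly misses this. The main values of both comparisons come from the fit without a block, which ignores any pairing, and the block is given only as an alternative.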

Additional observations from a re-analysis of the deposited data

How the results depend on the processing

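Each log2 fold change was recomputed under 30 settings, except that PPY did not pass the filter with only the groups compared in 3 comparisons (the vector in ISL1-/- and PAX6-/-, and PAX6-/- against ISL1-/-) and DESeq2 gave no adjusted p for GCG in 3. The falls of PPY and PYY in ISL1-/- and of PYY in PAX6-/- under BFP passed in 30 of 30. With 2 or 3 libraries a group, changes in NPY and in PPY at its low counts are the least precise. Other tools moved some calls. NPY in ISL1-/- against WT passed with DESeq2 (-2.32), no filter (-2.29), only the groups compared (-2.30), voom (-2.14) and without both libraries that stood apart (-2.28). PYY in PDX1-/- against WT passed with no filter (-2.24), only the groups compared (-2.23), voom (-2.28) and without those libraries (-2.23), as did NPY in the last (-1.23). For the vector in ISL1-/-, PPY passed with DESeq2 (5.53), no filter (5.14) and without those libraries (5.12), and PYY with only the groups compared (2.29), voom (2.11) and without those libraries (2.26). The call for PYY and the vector in PDX1-/- was lost with only the groups compared (3.12) and voom (2.06). The cause was not tested.

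Signs turned for NPY with a minimum count of 30 (ISL1-/- against WT, ISL1 vector, 0.01), and with voom for NPY and the vector in PAX6-/- (-0.50) and PYY in PDX1-/- against WT under the ISL1 vector (-0.29). Without both libraries that stood apart, signs turned for the vector in PAX6-/- (NPY -0.60) and in PDX1-/- (PPY -0.085, PYY -0.002, CCK -0.63, GIP -0.027), for PDX1-/- against WT under the ISL1 vector (PPY -0.97, PYY -2.31) and for the PDX1-/- minus WT vector effect (PPY -0.20, PYY -0.074).

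With the replicate number as a block, numbers from the description gave NPY -1.85 in ISL1-/- and PYY -1.96 in PDX1-/- against WT, and PYY 2.27 for the vector in ISL1-/-, all past the threshold. The block lost the PYY call for the vector in PDX1-/- (0.31) and turned signs for NPY in PAX6-/- against WT (0.15), CCK for the vector in PDX1-/- (-0.63), PDX1-/- against WT under the ISL1 vector (PPY -0.97, PYY -2.20) and the PDX1-/- minus WT vector effect (PPY -0.79, PYY -0.24). Numbers from the title gave NPY -2.62 in ISL1-/- against WT. Where the numbers pair the samples, for the vector in PAX6-/-, the block changed no call of a member. With description numbers it did change calls in the gene lists. It called 2 Y receptors and 2 processing genes lower, 1 PP-cell marker higher, and 1 gut peptide gene higher and 1 lower, where the main fit called none. Transcription factors called lower went from 1 to 3.

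Leaving out 1 library at a time gave these ranges against WT under BFP: NPY -2.91 to -1.25 in ISL1-/-, PPY -6.41 to -4.80 and NPY -0.92 to 0.74 in PAX6-/-, PPY -1.30 to 0.084, PYY -2.36 to -2.08 and NPY -1.82 to -0.16 in PDX1-/-. For the vector they were PPY -0.57 to 0.95 and PYY -0.048 to 0.21 and NPY -1.76 to -0.10 in WT, NPY -0.59 to 1.65 in PAX6-/-, and PPY -0.11 to 2.20, PYY -0.026 to 4.04, CCK -0.65 to 5.44 and GIP -0.048 to 7.65 in PDX1-/-. Against WT under the ISL1 vector they were NPY -0.45 to 0.178 in ISL1-/- and PPY -0.97 to 1.34 and PYY -2.31 to 1.76 in PDX1-/-. For the PDX1-/- minus WT vector effect they were PPY -0.21 to 2.09, PYY -0.094 to 3.97 and NPY 1.29 to 3.19, and NPY gave 1.23 to 2.90 for ISL1-/- and 0.56 to 2.93 for PAX6-/-.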
